A study of Mus musculus with 12 samples.

Results

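The response of mouse intestinal phagocytes to interleukin-4 (IL-4) and interleukin-13 (IL-13) was followed through 6 genes, chosen by name as receptor chains, transcription factor and effectors of these cytokines: *Il4ra*, *Il13ra1*, *Il2rg*, *Stat6*, *Retnla* and *Chil3*. Of these, 5 had a row with a single gene symbol among the 35556 rows of the array table, 1 row each. *Il2rg* is not named by a single-symbol row in the annotation used here, so no level is given for it. Resident macrophages, or RM, and dendritic cells that carry CD11b, or CD11b+ DC, had been sorted from cecum of mice aged 6 to 8 weeks, of both sexes and on the C57Bl/6 background. RM were the F4/80+ and CD11b+ DC the F4/80- part of the same CD45+CD11c+MHCII+CD11b+Ly6c- gate. WT mice carried the genotype Runx3 +/+. Runx3-cKO mice, called Runx3Δ here and given as Runx3 -/- in the sample labels, were their litter mates with *Runx3* floxed and deleted by CD11c-cre. The study set 3 WT against 4 Runx3Δ samples of RM, and 2 WT against 3 Runx3Δ samples of CD11b+ DC, each sample holding RNA pooled from 3 to 4 mice, to ask which genes depend on Runx3 in these cells. CD11c-cre acts in every cell that expresses CD11c, which includes both sorted populations and other CD11c+ cells of the mouse. A litter number in the labels ties samples of different groups to each other.

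IL-4 and IL-13 are the cytokines of type 2 immunity, made mainly by T helper cells, innate lymphoid cells, basophils and mast cells. IL-4 binds a receptor of the IL-4Rα chain (*Il4ra*) with the common γ chain (*Il2rg*), and both cytokines bind a second receptor of IL-4Rα with IL-13Rα1 (*Il13ra1*). The receptors signal through Janus kinases to STAT6 (*Stat6*), and in mouse macrophages STAT6 turns on a set of genes known as alternative activation. *Retnla* (RELMα, Fizz1), a secreted resistin-like protein, and *Chil3* (Ym1), a secreted chitinase-like protein, are its classical markers in the mouse.

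A pair of short stretches of the *Retnla* promoter holds letters that match a STAT6 motif and a RUNX motif. The search covered 250 bases before to 50 bases after the gene start in RefSeq's GRCm38.p6 table, which holds all 6 genes, on both strands. The motifs were TTCNNNNGAA, the palindrome that STAT6 binds, and TGTGGT, a core letter sequence of RUNX factors. Of 32851 promoters, 6.95% held the first and 16.8% the second. Among the 6 genes, only *Retnla* held the STAT6 letters, and 3 held the RUNX letters (*Retnla*, *Stat6* and *Il2rg*), without overlap between the motifs in *Retnla*. Capitals mark the matched letters, and each stretch of 30 bases runs 5′ to 3′ on the gene's own strand. In *Retnla* (plus strand) the STAT6 match begins 145 bases before the start, at chr16:48842454-48842483, and the RUNX match, read on the opposite strand, 179 bases before it, at chr16:48842418-48842447. In *Stat6* (plus strand) the RUNX match begins 151 bases before the start used in the promoter table, which lies downstream of the first base of the gene's RefSeq record, at chr10:127642823-127642852. A match describes the letters and is not evidence of binding.
Retnla, STAT6 letters: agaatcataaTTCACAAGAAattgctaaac
Retnla, RUNX letters: caagtctcttgaACCACAcctcttctactt
Stat6, RUNX letters: gcctccctccagTGTGGTtcaatggagctc

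All levels are log2 intensities of 1 row per gene on an Affymetrix array, normalized by the authors, and a difference of 1 is a doubling. Levels of different genes come from different probes and were not set against each other. The words rise and fall are kept for a gene whose limma p, after Benjamini-Hochberg adjustment across every row, was under 0.05. Higher, lower and above describe the values and do not by themselves mark a call. The study's own thresholds, a change of 1.5-fold and an unadjusted p of 0.05 or less, are given as well. The row of *Runx3*, which combines probes along the gene and so is no check of the deletion, lay at 9.48 to 9.83 in WT RM, 9.85 to 10.18 in Runx3Δ RM, 9.99 to 10.11 in WT DC and 9.97 to 10.14 in Runx3Δ DC. The sorted cells carried the markers of their labels: in WT, 10 of 11 RM markers with a row passed as higher in RM, all but *Cd163*, and all 7 CD11b+ DC markers passed as higher in DC. Markers of B and plasma cells (7 of 8 with a row) averaged 7.58 to 9.86 over the 12 samples, highest in WT RM replicate 1. Since each sample is a mixture of cells, fewer cells of a type and less RNA per cell cannot be told apart.

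*Retnla* was among the most variable genes of these samples, and no difference between the groups passed the adjusted threshold. In WT RM its log2 level was 7.46, 11.47 and 9.77 in replicates 1 to 3. In Runx3Δ RM it was 9.29, 9.97, 10.97 and 10.27 in replicates 1 to 4. WT CD11b+ DC had 11.41 and 10.60, and Runx3Δ CD11b+ DC had 7.85, 9.30 and 9.26. Thus the RM genotypes overlapped throughout, with the lowest and the highest value of all 12 samples both in WT RM, while every Runx3Δ DC sample lay below both WT DC samples. The group means ran, from high to low, WT DC (11.00 ± 0.58, SD, n = 2), Runx3Δ RM (10.13 ± 0.70, SD, n = 4), WT RM (9.56 ± 2.01, SD, n = 3) and Runx3Δ DC (8.81 ± 0.83, SD, n = 3). Neighbours in this order overlapped in their samples, and the ends, WT DC and Runx3Δ DC, did not. The SD within groups was 1.18, higher than in 99.9% of the 19938 genes with a row.

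**Figure D1:**
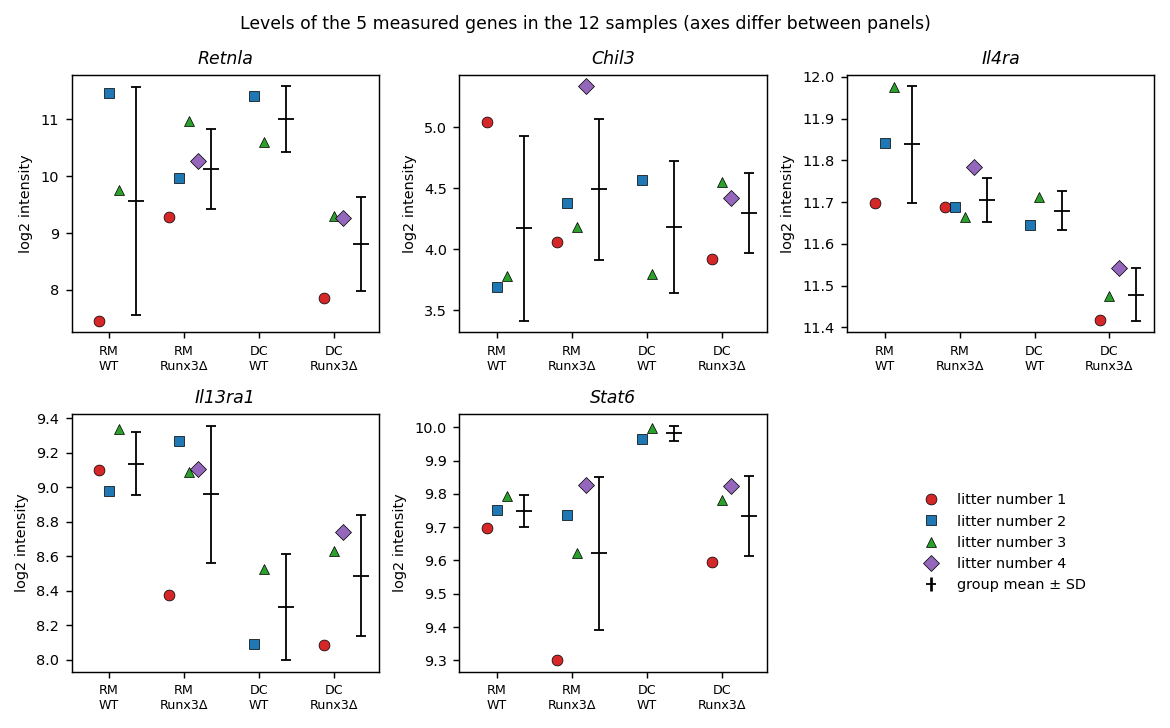
Log2 intensity (y axis, its range differs between panels) of the 5 genes with a row in each of the 12 samples, by group (x axis; DC stands for CD11b+ DC), with colour and shape giving the litter number and the bar beside each group its mean ± SD. *Retnla* spans 7.46 to 11.47, its 3 Runx3Δ DC samples lie below both WT DC samples, and the litter 1 sample is the lowest of its group in each of 3 groups.

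In CD11b+ DC, *Retnla* was lower in Runx3Δ than in WT by a log2 difference of -2.20 (SE 0.93, 95% confidence interval -4.24 to -0.16), a 4.58-fold difference in the means. This did not pass (limma, adjusted p = 0.718), as did none of the 35556 rows in this comparison (0%). It met the thresholds of the study, as did 2.13% of rows, and *Retnla* was the only gene of the 5 with an unadjusted p under 0.05, which 6.74% of rows had. The groups do not overlap in 25.7% of rows, since only 2 samples face 3, and in 3 of the 5 genes: *Retnla*, *Il4ra* and *Stat6*. The study had listed *Retnla* as lower in Runx3Δ DC on these same samples, so the value is no independent evidence. With the litter as a fixed block the difference was -1.26 (adjusted p = 0.998), and in litter 3, the only litter with both genotypes of DC, it was -1.29.

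Between the DC genotypes no monocyte marker passed the adjusted threshold, and neither did any of the 35556 rows (0%). The mean level of the 4 monocyte markers with a row (of 6 listed: *Ccr2*, *Plac8*, *Vcan* and *Fn1*) was 9.51 to 9.82 in WT DC and 8.43 to 9.17 in Runx3Δ DC, and their part in the *Retnla* difference was not tested. *Fn1* (fibronectin), which differed by -2.02, the most of the 4, is also among the genes picked below for their likeness to *Retnla*. Without it, an omission chosen after seeing the data, the mean was 8.67 to 8.90 in WT and 8.10 to 8.62 in Runx3Δ DC. *Ccr2*, the chemokine receptor of monocytes, differed by -0.41 and *Vcan*, the proteoglycan versican, by -1.33, while *Plac8* differed by 0.66 in the other direction. Markers of T cells and ILC2, sources of IL-13, were at 6.47 to 6.55 in WT and 6.63 to 6.91 in Runx3Δ DC (10 of 11 with a row). Of the 10, 8 were higher in Runx3Δ DC and 0 passed. The list holds *Cd4* and *Il7r*, at 8.84 to 9.78 and 10.22 to 10.79 in DC, and *Cd3d*, at 4.01 to 4.76. Its mean is therefore no measure of the number of such cells. The 7 markers of CD11b+ DC themselves averaged 10.43 to 10.50 in WT and 10.15 to 10.23 in Runx3Δ DC, and those of RM overlapped. The lists of mast cells and basophils, eosinophils, epithelium, serosal macrophages, and B and plasma cells overlapped between the DC genotypes. The mean of the 11 neutrophil markers did not, at 4.58 to 4.59 in WT and 4.60 to 4.83 in Runx3Δ DC. Of these 11, 8 were higher in Runx3Δ DC and 0 passed. *Cxcr2* differed by 1.27, while *S100a8* differed by 0.01 and *Ngp* by -0.12. *Cxcr2* alone thus weighs heavily on this mean, which is no measure of the number of neutrophils.

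In RM, the *Retnla* difference between Runx3Δ and WT was 0.56 (SE 0.78, 95% confidence interval -1.15 to 2.27, adjusted p = 0.886). Its sign rested on WT RM replicate 1: without this sample it was -0.49, and without all 3 samples of litter 1, an omission chosen after seeing the data, -0.21. WT RM replicate 1 also had the highest mean of B and plasma cell markers (9.86) and the highest *Retnlg* (8.80). The difference between the genotype effects in RM and DC was 2.76 (SE 1.21, 95% confidence interval 0.10 to 5.42, adjusted p = 1.00), and 0% of rows passed in that comparison. RM and DC differed by -1.44 in WT (95% confidence interval -3.48 to 0.60, adjusted p = 0.515) and by 1.32 in Runx3Δ (-0.39 to 3.03, adjusted p = 0.424). Without WT RM replicate 1 the difference of genotype effects was 1.71 and RM minus DC in WT -0.39, and without WT RM replicate 2 the latter was -2.39. Without Runx3Δ DC replicate 1, RM minus DC in Runx3Δ was 0.84.

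*Retnla* was low in litter 1 in every group that holds a sample of it. There the WT and Runx3Δ RM samples were at 7.46 and 9.29 and the Runx3Δ DC sample at 7.85, each the lowest of its group. Within a litter, Runx3Δ RM minus WT RM was 1.83 in litter 1, -1.50 in litter 2 and 1.20 in litter 3. Runx3Δ RM lay above Runx3Δ DC in each of the 3 litters that held both, by 1.43, 1.67 and 1.01 (litters 1, 3 and 4). In WT, RM minus DC was 0.06 in litter 2 and -0.83 in litter 3. Of the 19938 genes, 7.49% had the litter 1 sample lowest in all 3 groups that hold one. Among the genes of the response it was 2 of 5 (*Retnla* and *Stat6*) and, of the 44 other pathway genes with a row, 11 (25.0%). The litter 1 sample was highest in all 3 groups in 0 genes of either set, against 3.85% of the 19938 genes.

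The genes whose profile over the 12 samples lay nearest to that of *Retnla*, by the root mean square difference of centred log2 levels, were *Lyz1* (0.608), *Fn1* (0.655), *Lpl* (0.686), *Akr1c18* (0.714) and *Mamdc2* (0.732), where the median over 19937 genes was 1.23 and the spread of *Retnla* itself 1.21. *Lyz1* encodes a lysozyme whose near-identical copy *Lyz2* can share its probes, so its level is uncertain. *Fn1* is also in the monocyte list, *Lpl* encodes lipoprotein lipase, and *Akr1c18* a steroid-reducing enzyme. *Fn1* was at 12.59 and 12.05 in WT DC and at 9.41, 10.69 and 10.80 in Runx3Δ DC, and had 9.91, 11.78 and 10.62 in WT RM, so that the litter 1 samples were again low. In DC the 5 genes differed between Runx3Δ and WT by -2.38 (*Akr1c18*) to -1.49 (*Mamdc2*) and in RM by -0.25 (*Fn1*) to 0.28 (*Lyz1*), with no adjusted p under 0.05. As they were picked for their likeness to *Retnla* in the same samples, these differences are a description.

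**Figure D2:**
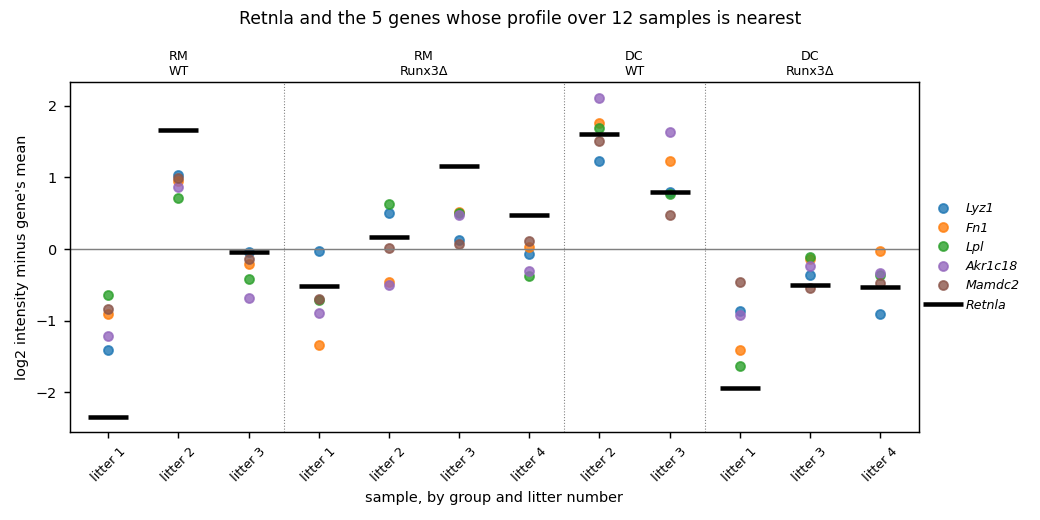
Log2 intensity minus the gene's mean over 12 samples (y axis) of *Retnla* (black bars) and its 5 nearest genes (coloured points) in each sample (x axis, by group, DC standing for CD11b+ DC, and litter number). All 6 genes are high in both WT DC samples and in the litter 2 sample of WT RM, and below their mean in the 3 litter 1 samples.

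*Chil3* was dim in every sample and did not follow *Retnla*. Its log2 level was 5.04, 3.69 and 3.78 in WT RM and 4.06, 4.38, 4.19 and 5.34 in Runx3Δ RM. In WT DC it was 4.57 and 3.80, and in Runx3Δ DC 3.92, 4.55 and 4.42. Groups overlapped in all 4 comparisons, and 2 samples reached a level of 5. The differences between Runx3Δ and WT were 0.32 in RM (SE 0.38, 95% confidence interval -0.52 to 1.16, adjusted p = 0.870) and 0.12 in DC (SE 0.46, -0.89 to 1.12, adjusted p = 0.984). Its spread within groups was again high, above that of 99.3% of genes. *Chil3* and *Chil4* (Ym2) are near-identical copies whose probes may share transcripts, and *Chil4* lay at 2.95 to 3.45. The nearest profiles were those of *Smim20* (0.277), *Rdh11* (0.291), a retinol dehydrogenase, and *Pgm1* (0.296), a phosphoglucomutase, against a median of 0.519 over genes and a spread of *Chil3* itself of 0.490.

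Among the relatives of the 2 effectors, *Chil1* (BRP-39), a chitinase-like protein made in inflamed gut, stood out in litter 1. It was at 10.32 in Runx3Δ RM, 8.07 in Runx3Δ DC and 6.29 in WT RM of litter 1, and at 4.79 to 4.96 in the 9 other samples. The genotype differences of 0.83 in RM and 1.02 in DC did not pass (adjusted p = 0.895 and 0.958), and within the other litters they were 0.01 and -0.14 in RM and -0.08 in DC. *Retnlg*, a resistin-like gene of neutrophils, was at 8.80 in WT RM replicate 1 and at 5.19 to 6.82 elsewhere. *Retn*, resistin itself, was lower in RM than in DC, by -0.56 in WT (adjusted p = 0.0462) and -0.51 in Runx3Δ (adjusted p = 0.0258), with levels of 4.74 to 5.62. *Retnlb*, the goblet cell member, lay at 3.37 to 3.93, *Chil5* and *Chil6* at 3.09 to 3.80, and *Chia1*, the acidic chitinase, at 4.13 to 4.57, with no difference past the threshold in any comparison.

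The receptor chain *Il4ra* was bright and steady. WT RM had 11.70, 11.84 and 11.98, and Runx3Δ RM 11.69, 11.69, 11.66 and 11.78. WT DC had 11.65 and 11.71, and Runx3Δ DC 11.42, 11.47 and 11.54. The means ran, from high to low, WT RM (11.84 ± 0.14, SD, n = 3), Runx3Δ RM (11.71 ± 0.05, SD, n = 4), WT DC (11.68 ± 0.05, SD, n = 2) and Runx3Δ DC (11.48 ± 0.06, SD, n = 3). Only Runx3Δ DC lay apart from every other group. Runx3Δ minus WT was -0.13 in RM (SE 0.09, 95% confidence interval -0.32 to 0.06, adjusted p = 0.746) and -0.20 in DC (SE 0.10, -0.43 to 0.03, adjusted p = 0.775). In Runx3Δ, RM lay above DC by 0.23 (SE 0.09, adjusted p = 0.163), by 0.19 to 0.27 in each of 3 litters. Only 5.88% of genes had a smaller spread within groups.

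*Il13ra1*, the chain that makes the receptor responsive to IL-13, was higher in RM than in DC of WT mice, short of the adjusted threshold. Its level was 9.10, 8.98 and 9.34 in WT RM against 8.09 and 8.52 in WT DC, a difference of 0.83 (SE 0.27, 95% confidence interval 0.23 to 1.43, adjusted p = 0.115). Within litters 2 and 3 the difference was 0.89 and 0.81. With the litter as a replicate block the gene passed (0.98, adjusted p = 0.0291), as it did without Runx3Δ RM replicate 1 (adjusted p = 0.0386) and under 4 further alternatives, with adjusted p of 0.0212 to 0.524 over all 24. Runx3Δ RM had 8.37, 9.27, 9.09 and 9.11, the lowest again from litter 1, and Runx3Δ DC 8.09, 8.63 and 8.74. The difference between RM and DC was 0.47 there (SE 0.23, adjusted p = 0.298), and between the genotypes -0.18 in RM (SE 0.23, adjusted p = 0.878) and 0.18 in DC (SE 0.27, adjusted p = 0.959). Without Runx3Δ RM replicate 1 the RM difference was 0.017. The decoy receptor *Il13ra2*, which binds IL-13 without signalling through STAT6, was dim, at 2.99 to 3.25 in all samples.

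*Stat6* differed between the compared groups by at most 0.25 in size, and no difference passed. WT RM had 9.70, 9.75 and 9.79, and Runx3Δ RM 9.30, 9.74, 9.62 and 9.83. WT DC had 9.96 and 10.00, the highest of the 12 samples, and Runx3Δ DC 9.60, 9.78 and 9.82. Runx3Δ minus WT was -0.13 in RM (SE 0.12, 95% confidence interval -0.39 to 0.14, adjusted p = 0.838) and -0.25 in DC (SE 0.14, -0.57 to 0.07, adjusted p = 0.795). RM minus DC was -0.23 in WT (SE 0.14, adjusted p = 0.490) and -0.11 in Runx3Δ (SE 0.12, adjusted p = 0.717).

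Over the 5 genes, none passed the adjusted threshold in any of the 5 comparisons, by limma or by the methods' test on 4 groups. The share of all rows that passed was 0.0141% for genotype in RM, 6.07% for RM against DC in WT and 7.85% for RM against DC in Runx3Δ. At an unadjusted p under 0.05 there were 0 of 5 for genotype in RM (7.96% of rows), 1 for genotype in DC, 1 for the difference of genotype effects (*Retnla*; 3.91% of rows), 1 for RM against DC in WT (*Il13ra1*; 17.2%) and 1 in Runx3Δ (*Il4ra*; 18.8%). The median difference of the 5 genes was -0.13 in RM and -0.20 in DC, where that of all rows was 0.03 and 0.01. In RM no gene of the 5 had genotypes that do not overlap (7.55% of rows). Between RM and DC, *Il13ra1* and *Stat6* did not overlap in WT (32.4% of rows) and *Il4ra* did not in Runx3Δ (19.5%).

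**Figure D3:**
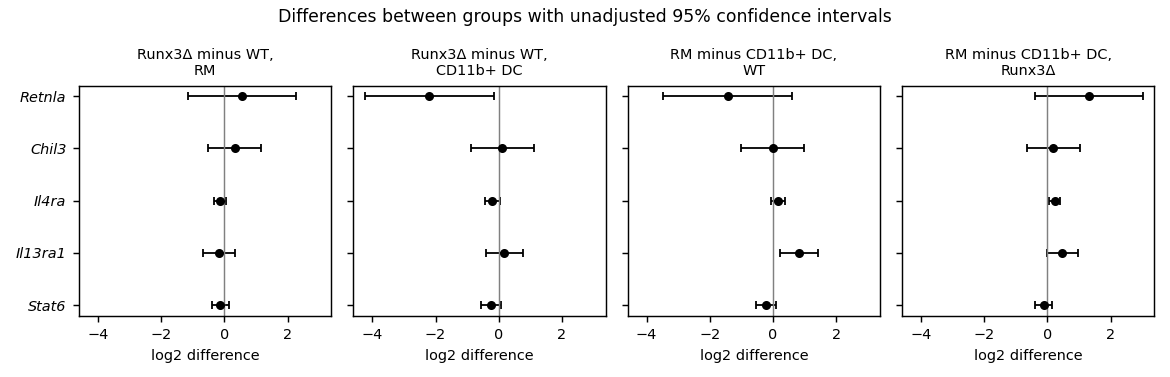
Log2 difference (x axis) with its unadjusted 95% confidence interval for the 5 genes (y axis) in 4 comparisons, from the limma fit of 12 samples. The interval of *Retnla* is the widest in every panel (-4.24 to -0.16 in DC), and that of *Il4ra* is narrow (-0.43 to 0.03 in DC).

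The ligands were dim, with *Il4* at 4.21 to 4.65 and *Il13* at 5.29 to 5.63, and no comparison of either passed. For the other genes of the pathway, 44 of 46 listed had a row, and *Jak3* and *Ear11* had none. In RM, 2 of the 44 rose with the loss of Runx3 and 0 fell, against 0.0141% of rows in either direction, both of them effectors, where the median of the 44 was 0.05 and that of all rows 0.03. *Ccl24* (eotaxin-2), a chemokine for eosinophils, went from 7.05, 6.25 and 6.96 in WT to 9.20, 9.60, 9.56 and 9.94 in Runx3Δ, a rise of 2.82 (SE 0.28, adjusted p = 0.00790). *Pdcd1lg2* (PD-L2), a ligand of the inhibitory receptor PD-1, went from 7.95, 8.05 and 8.42 to 9.77, 10.50, 10.33 and 10.67, a rise of 2.18 (SE 0.21, adjusted p = 0.00790). Neither genotype overlapped the other, and the rise was present in each of 3 litters (2.15 to 3.35 for *Ccl24*, 1.83 to 2.45 for *Pdcd1lg2*). Both genes met the thresholds of the study. Both calls were lost in the fit of RM samples alone. They were also lost under the methods' test with adjustment over all rows, a step that the study's thresholds do not include. Adjusted p was 3.98e-04 to 0.489 over 26 alternatives. The paper reports RT-qPCR checks of several of its RM genes, and more PD-L2 protein on Runx3Δ RM by flow cytometry.

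The next smallest p in RM belonged to *Ch25h*, cholesterol 25-hydroxylase, with a difference of -1.03 (SE 0.19, adjusted p = 0.148; with a single row or averaged rows for each gene it passed as lower, at 0.0328 and 0.0335), and to *Arg1*, arginase 1, the enzyme most used as a marker of alternative activation. *Arg1* was at 5.71, 5.01 and 5.66 in WT and at 6.66, 7.24, 6.79 and 7.78 in Runx3Δ RM, a difference of 1.65 (SE 0.36, adjusted p = 0.214) between groups that do not overlap. At the thresholds of the study, 8 of the 44 genes were higher and 1 lower in Runx3Δ RM (20.5%, against 1.46% of rows), all 9 effectors. None of the 5 kinases and adaptors, 7 further transcription factors and 4 inhibitors was among them, and neither was *Retnla* or *Chil3*. The pathway list was chosen with earlier results of these data known. It holds genes that the study lists for these samples, such as *Arg1*, *Ch25h* and *Pdcd1lg2*. The share of rows also counts 12146 rows without a gene symbol. The shares of pathway genes, here, above and below, are thus a description.

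In CD11b+ DC, 0 of the 44 passed after adjustment, 12 had an unadjusted p under 0.05 (against 6.74% of rows), and at the thresholds of the study 5 were higher and 4 lower in Runx3Δ (20.5%, against 2.13% of rows). The median of the 44 was -0.07, and that of all rows 0.01. The smallest p belonged to *Mrc1*, *Tgm2*, *F13a1* and *Pdcd1lg2*. *Mrc1*, the macrophage mannose receptor, was at 10.87 and 10.24 in WT and at 8.90, 9.45 and 9.69 in Runx3Δ, a difference of -1.21 (SE 0.27, adjusted p = 0.327). *F13a1*, the A chain of coagulation factor XIII, was at 9.17 and 8.38 in WT and at 5.65, 6.61 and 6.93 in Runx3Δ, a difference of -2.38 (SE 0.56, adjusted p = 0.367). *Tgm2*, a transglutaminase, differed by 0.67 (SE 0.16, adjusted p = 0.367) and *Pdcd1lg2* by 1.04 (SE 0.25, adjusted p = 0.367), both higher in every Runx3Δ sample. The 25 other effectors with a row thus lay on both sides of 0 in DC, 11 above and 14 below.

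**Figure D4:**
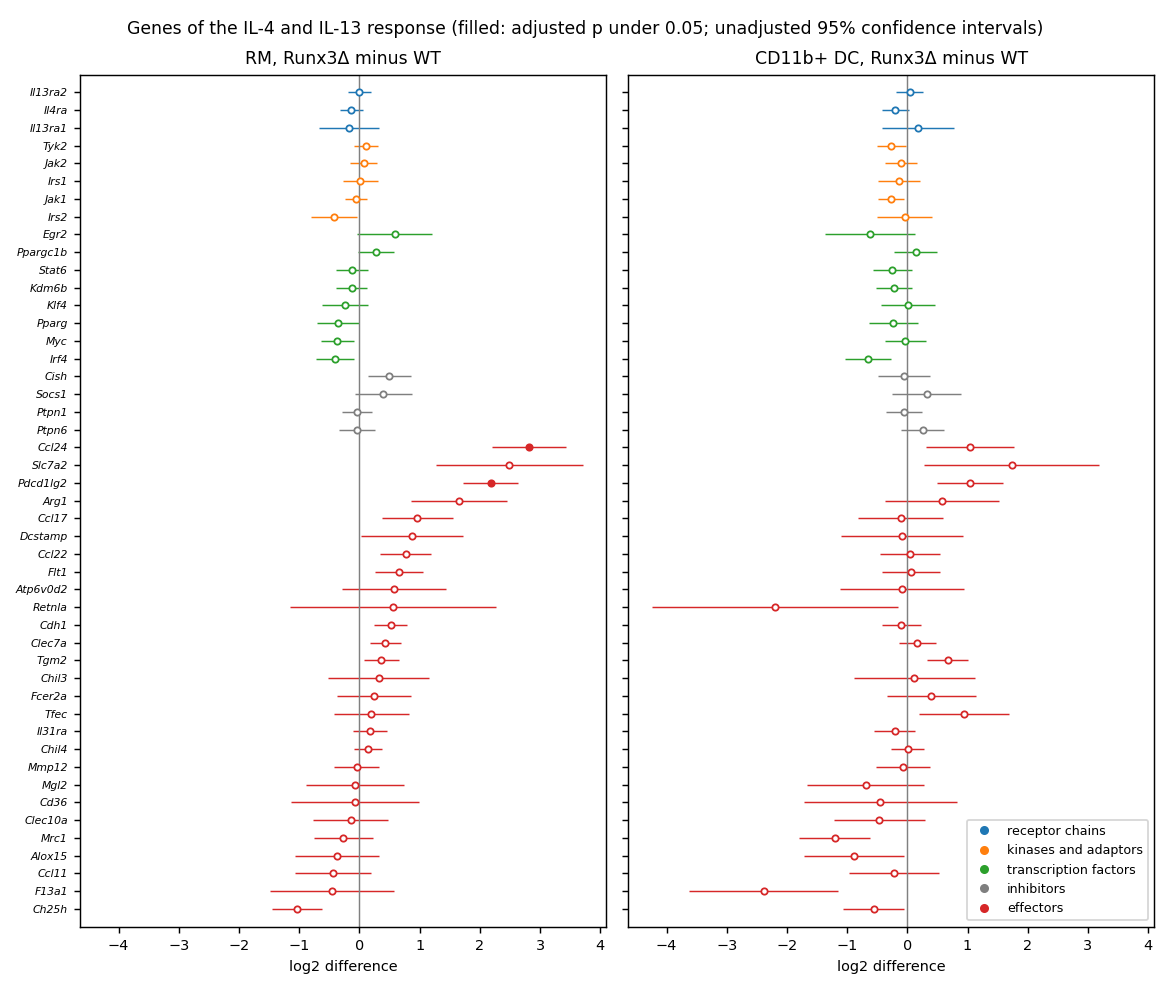
Log2 difference between Runx3Δ and WT (x axis) with its unadjusted 95% confidence interval for 47 genes of the response (y axis, grouped by role and ordered by the RM difference), in RM (left) and CD11b+ DC (right); filled points have an adjusted p under 0.05. Only *Ccl24* and *Pdcd1lg2* are filled, both in RM, and *Retnla* has a wide interval in both panels, around 0.56 in RM and -2.20 in DC.

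The genotype effect did not differ between RM and DC past the threshold in any of the 44 genes, of which 9 had an unadjusted p under 0.05 (against 3.91% of rows). The median of this difference was 0.24, against 0.01 over all rows, and it was above 0 in 32 genes. The values were 1.78 for *Ccl24* (SE 0.43) and 1.14 for *Pdcd1lg2* (SE 0.32), both with an adjusted p of 1.00.

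Between RM and DC, 11 of the 44 genes passed in WT (25.0%, against 6.07% of rows), 3 higher in RM and 8 lower, and 15 in Runx3Δ (34.1%, against 7.85%), 8 higher and 7 lower. The median difference of the 44 was -0.02 in WT and 0.09 in Runx3Δ, against -0.00181 and 0.0218 over all rows. *Cdh1* (E-cadherin), a surface protein that IL-4 induces in macrophages and that DC also carry, was lower in RM, by -3.21 in WT (SE 0.15, adjusted p = 4.21e-06) and by -2.60 in Runx3Δ (SE 0.12, adjusted p = 3.69e-06). The chemokines *Ccl17* and *Ccl22*, ligands of CCR4 and typical products of DC, were lower in RM as well, by -3.27 and -2.16 in WT (adjusted p = 1.55e-04 and 2.44e-04) and by -2.19 and -1.44 in Runx3Δ (adjusted p = 4.83e-04 and 7.84e-04). *Irf4*, a transcription factor of CD11b+ DC and of alternative activation, was at 9.29, 9.56 and 9.07 in WT RM and 10.79 and 10.49 in WT DC, a difference of -1.33 (SE 0.17, adjusted p = 8.78e-04). *Mrc1* was higher in RM in both genotypes. It was at 11.44 to 12.16 in RM and 10.24 to 10.87 in DC of WT, a difference of 1.24 (SE 0.27, adjusted p = 0.0185), and at 11.43 to 11.77 and 8.90 to 9.69 in Runx3Δ, a difference of 2.18 (SE 0.22, adjusted p = 1.67e-04).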

How the data were processed

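Total RNA of 12 samples was hybridized to Affymetrix arrays. The authors deposited log2 intensities from RMA in Partek, used as they are; the submitters' processing notes name the build mm9. The methods name an exon array and the platform record a gene-level array, whose annotation was used. All 12 columns were mapped to samples by name. Of 35556 rows, 21789 carry 1 gene symbol (21698 also in the RefSeq table), 1621 several and 12146 none, of which 6617 lead the table. A gene with several rows was represented by its brightest row. No probe-level detection was used, and the number of arrays limits the precision.

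A single fit of 4 group means was made with limma 3.58.1 (lmFit, eBayes) in R 4.3.3 (statmod 1.5.0 for the litter as a random block), and P values were adjusted over all rows. The fit was tested on simulated data. Python 3.11.15 and matplotlib 3.10.9 served for the figures. The genes, lists and tests were chosen with earlier results of these data known. Named were the 6 genes, *Il4* and *Il13*, their resistin-like and chitinase-like relatives, up to 4 pathway genes per comparison with the smallest p, and the 5 and 3 genes nearest to *Retnla* and *Chil3*. Monocyte markers and *Mrc1* in WT were named after their values were seen.

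Litter numbers come from the sample labels and were taken to mark shared litters of pooled mice, so they pair samples. The deviations of samples from their group means correlated at -0.0412 to 0.358 within a litter (median 0.0958, 13 pairs from different groups) and at -0.257 to 0.203 between litters (median -0.0347, 40 pairs). Samples of a group correlated at 0.979 to 0.991 and none was a repeat of another. P values measure the spread between pools.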

Additional observations from a re-analysis of the deposited data

Results flagged for a closer look

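Of 34 genes checked in Runx3Δ RM, the group with 4 samples, 5 had a sample far from the other 3, where chance alone gives about 1 in 20. Replicate 1, of litter 1, was the one apart in 4 of them: *Chil1* at 10.32 (others 4.80 to 4.94), *Retn* at 5.25 (4.88 to 4.90), *F13a1* at 7.95 (8.72 to 8.86) and *Mamdc2* at 4.41 (5.11 to 5.21). *Mrc1* was at 11.77 in replicate 4 and at 11.43 to 11.47 in the others. The 34 genes were not drawn at random, *Mamdc2* being picked for its likeness to *Retnla*, and they share the same samples. The rate of 1 in 20 is therefore no test of an excess. No explanation was tested.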

How the results depend on the processing

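Over all alternatives, 988 of 1020 values for single genes kept their sign and side of the threshold, 18 changed sign, 8 passed and 6 no longer did; of 248 counts, 238 stayed within 1.5 times. *Retnla* did not pass in any comparison under any alternative. With the litter number as a fixed replicate block, its difference was 0.51 in RM and -1.26 in DC, and the block changed no call of the 5 genes other than that of *Il13ra1* between WT RM and DC. That call brought the count of the 5 genes to 1 with the replicate block, array weights, a single row or averaged rows for each gene, and without litter 1 (chosen after seeing the data), and to 0 to 1 with each sample left out. The *Retnla* difference in RM was -0.21 without litter 1 and -0.49 to 1.51 with each sample left out, that in DC -2.60 to -1.72, their difference 1.71 to 3.71, and RM minus DC -2.39 to -0.39 in WT and 0.84 to 1.60 in Runx3Δ. Sign changes otherwise occurred in differences near 0: *Chil3* in DC was -0.21 under the replicate block and -0.27 to 0.50 over omissions; *Chil3* between WT RM and DC was 0.00479 after quantile normalization and -0.45 to 0.37 over omissions, and -0.0889 to 0.335 in Runx3Δ; the *Chil3* difference of genotype effects ran from -0.18 to 0.64; that of *Il4ra* was -0.00141 with array weights, -0.0265 without litter 1 and -0.00249 to 0.14 over omissions; *Il13ra1* ran from -0.281 to 0.0167 in RM and from -0.0385 to 0.397 in DC. Of the other pathway genes, 2 passed for genotype in RM, and 0 did with RM samples alone or under the methods' test on 2 or 4 groups, while 3 did, *Ch25h* as lower, with a single row or averaged rows for each gene; 11 passed between WT RM and DC, and 18 without litter 1. Over all rows, 5 passed for genotype in RM, 8 with the block, 15 with array weights, 8 with median centring, 29 without the leading unnamed rows, 47 with a single row and 43 with averaged rows for each gene, 28 without litter 1, 63 without WT RM replicate 1, 8 without Runx3Δ RM replicate 3, and 0 in the fits that called no pathway gene. Between RM and DC, 2160 rows passed in WT, 1354 without WT RM replicate 3 and 3294 without litter 1. In Runx3Δ 2791 passed, and 1562 without Runx3Δ DC replicate 2. The cause of these shifts was not tested. For genotype in DC, 0 of all rows passed, and 6 did with a single row or averaged rows for each gene. Without WT RM replicate 1 or 2, or without litter 1, 1 row passed. Omitting a WT DC sample leaves 1 WT DC sample assumed to vary like the other groups, so no count of rows is given for such an omission.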
